A study of Mus musculus with 10 samples.

Results

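The Spata (spermatogenesis associated) and Spag (sperm associated antigen) genes share a naming history in the testis, and not a common protein structure. They were taken as the rows of the gene table whose symbol begins with Spata or Spag followed by a digit, apart from 2 genes that are not reported here. This gave 38 genes, 29 Spata and 9 Spag, of 15507 genes listed. Their levels were measured by RNA sequencing of mRNA in germ cells from the testes of 5 wild type (WT) mice and 5 homozygous GRTH Knock-In (KI) mice, with 1 library from each mouse. GRTH, encoded by Ddx25, is a testis RNA helicase of the DEAD-box family, and the knocked-in allele is human GRTH bearing an Arg-to-His missense change. Both groups were 45 days old, and no other allele or treatment distinguished them in the descriptions. The germ cells were obtained by enzymatic dispersion of the testis and were not sorted by stage, so each library held spermatogonia, spermatocytes and spermatids together. The paper describes these KI mice as without elongating spermatids and sperm, because their round spermatids do not elongate. In such bulk libraries, fewer cells of a stage and less RNA per cell cannot be told apart.

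A sperm is assembled after meiosis, when the round spermatid elongates. The tail grows around an axoneme of doublet microtubules with a central apparatus, the manchette shapes the head and carries cargo to the neck, the connecting piece joins head to tail, and mitochondria are wrapped around the midpiece. Much of the mRNA for these late structures is made in round spermatids, stored with RNA-binding proteins and translated later. Spata and Spag proteins have been placed in nearly all of these structures: several Spag proteins in the central apparatus, Spata6 in the connecting piece, Spata18, Spata19 and Spata33 at mitochondria, and Spata16 at the acrosome. Other members, such as Spag5, Spag9 and Spata2, are used by many cell types.

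The libraries held 13323024 to 16422347 reads on genes in WT and 12722086 to 15500582 in KI, and all values below are read counts normalised by the size factor of each library. Ddx25 itself was at 5198 to 11101 in WT, 146 to 194 in KI libraries 1 to 3 and 1.84 to 2.88 in KI libraries 4 and 5. Reads were mapped to the mouse genome, so this row may not count transcripts of the human allele. These values therefore do not give the level of GRTH in KI, where the paper describes a loss of the phosphorylated form. Libraries 4 and 5 of both genotypes also stood apart from libraries 1 to 3 on the second principal component, although the labels name no batch, so changes are given for both sets further on. Markers of spermatogonia, spermatocytes, round spermatids and elongating spermatids were all detected in every library. Markers of elongating spermatids were lower in KI for 9 of 9 genes, with a median log2 fold change of -2.50 and summed levels of 241203 to 431674 in WT and 34858 to 69834 in KI. Round spermatid markers (0 of 8 called, median -0.36, summed levels 19090 to 21476 in WT and 11705 to 18132 in KI) and spermatocyte markers (0 of 8, median -0.05, 21210 to 27553 and 20319 to 25006) were not called. Still, all 8 round spermatid markers had a negative change, 3 of them with a limma adjusted p under 0.05, and their sums did not overlap. Of the spermatocyte markers, 4 were negative and 4 positive, and 1 was lower at that adjusted p. Leydig cell markers were higher in KI for 3 of 7 genes, with sums of 10290 to 18066 in WT and 14779 to 25692 in KI, and macrophage markers for 6 of 9, with sums of 833 to 1046 and 1292 to 1618. Of the other lists, 0 of 8 spermatogonial and 0 of 8 Sertoli cell markers were called, and 2 of 4 peritubular myoid cell markers tested were higher. Sertoli cell sums were 5957 to 9832 in WT and 6115 to 10491 in KI, so every library held somatic markers beside those of germ cells. The part of these shifts in the results below was not tested.

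Of the 38 Spata and Spag genes, 11 were down-regulated and 0 up-regulated in KI by limma (adjusted p under 0.05 and at least a 1.5-fold change), while 8.22% of the 15389 genes tested were called lower and 6.13% higher by the same rule. At an unadjusted p under 0.05, 20 members were lower and 1 was higher, against 18.4% and 16.2% of all genes. edgeR called 12 members lower and 0 higher, against 1293 and 950 of the 15389 genes tested. DESeq2 called 11 lower and 0 higher, against 1291 and 1018 of them. All 11 members called by limma were Spata genes, of 29, and 0 of the 9 Spag genes was called. Without the fold limit, 19 members were lower and 0 higher, 18 of them Spata genes and the other Spag16, against 13.3% of all genes lower and 9.65% higher. The fitted change was below 0 for 30 of the 38, against 46.4% of all genes. Every KI library lay below every WT library for 16 members, and above for 0, against 10.9% and 6.80% of all genes. The median log2 fold change of the members was -0.32, against 0.03 for all genes. It was -0.41 for the Spata genes and -0.02 for the Spag genes. In 9 members the span overlapped another row of the table, and the counting was not stated to use strand, so reads in the shared bases of Spag1 (with Polr2k), Spag17 (Wdr3), Spag6l, Spag8 (Npr2), Spata1 (Ctbs), Spata17, Spata2 (Rnf114), Spata2l (4933417D19Rik) and Spata32 are uncertain. The summed level of the 38 genes was 151729 to 186693 in WT and 105685 to 120806 in KI, so the groups did not overlap, and the 11 called genes made up 80.4% of the fall. The total over all genes did not overlap either, at 15456693 to 16736057 in WT and 12939539 to 14599434 in KI. When libraries were scaled to their total reads, where all genes shift to a median of 0.25, 6 members were called lower and 0 higher and their median was -0.09, with 789 genes lower and 2145 higher in the whole table in place of 1265 and 944.

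**Figure D1:**
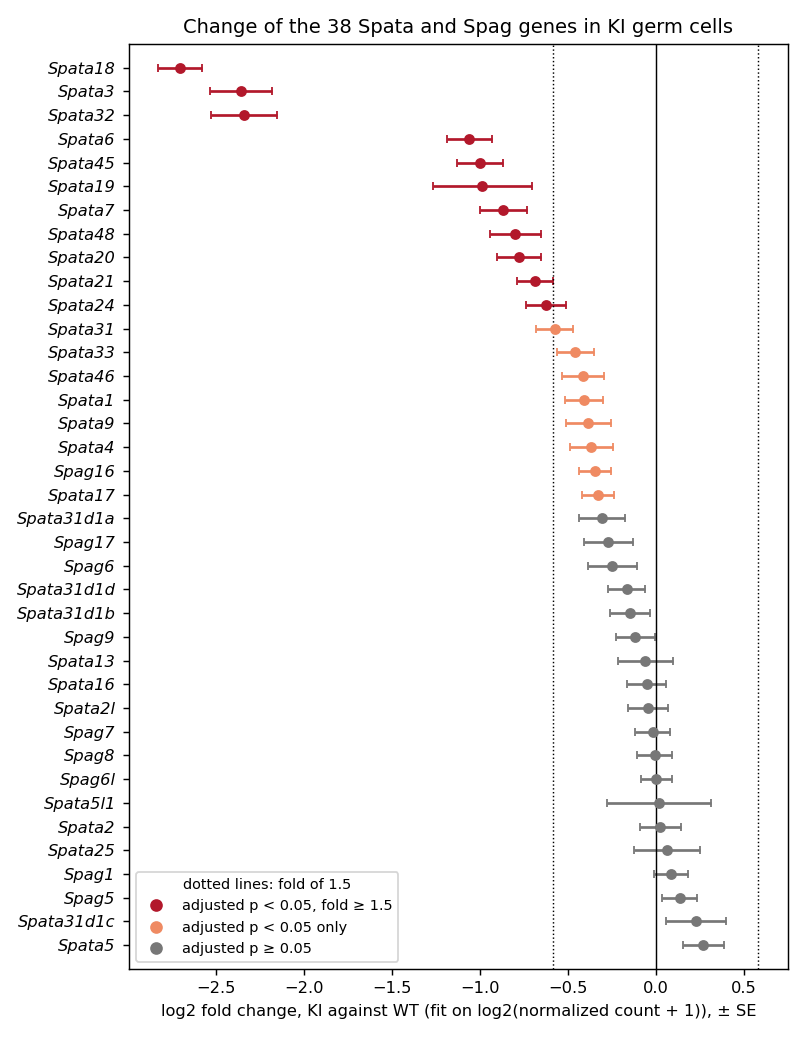
Log2 fold change (KI against WT) of the 38 Spata and Spag genes ± SE, ordered by size and coloured by the test; dotted lines mark a 1.5-fold change. Spata18, Spata3 and Spata32 stand apart at -2.71 to -2.34, and the 9 Spag genes lie between -0.34 and 0.14.

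Spata18, Spata3 and Spata32 had the largest falls of all members. Spata18 (Mieap; chromosome 5, 73651380 to 73679485, plus strand, mm10), a protein of mitochondrial quality control, had 10342, 11245, 11988, 7530 and 8458 in WT libraries 1 to 5 and 1455, 1499, 1461, 1689 and 1393 in KI libraries 1 to 5. The KI values lay in a narrow band far under the lowest WT library, with means of 9912 ± 1875 in WT and 1499 ± 113 in KI (SD, n = 5 each). The fall was 6.52-fold (log2 fold change -2.71, SE 0.12, limma adjusted p = 2.68e-09). Spata3 (chromosome 1, 86021942 to 86029959, plus strand) had 6322, 6743, 7479, 4185 and 4522 in WT libraries 1 to 5 and 1208, 1274, 1324, 1111 and 754 in KI libraries 1 to 5. All KI libraries were far below all WT libraries (log2 fold change -2.36, SE 0.18, limma adjusted p = 2.68e-07). Spata32 (chromosome 11, 103208127 to 103218433, minus strand) had 1309, 1369, 1615, 807 and 946 in WT libraries 1 to 5 and 244, 282, 258, 229 and 158 in KI libraries 1 to 5. Its groups did not overlap either (log2 fold change -2.34, SE 0.19, limma adjusted p = 4.34e-07), and 422 bases of its span also belong to 1700023F06Rik on the same strand, where reads of the genes cannot be told apart. The log2 fold changes of these 3 genes lay within the range of the 9 elongating spermatid markers, -3.30 to -1.85, and no other member reached it.

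The DNA just before the transcription start of these 3 genes is shown because they fell most, beside that of Spata7 and Spag6l, the only members found with the full cyclic AMP response element TGACGTCA in their promoter. Each stretch runs from 80 bases before to 10 bases after the start (RefSeq, GRCm38.p6) in the direction of the gene, with TGACG or its reverse complement in capitals.
Spata18, chr5:73651300-73651389, plus strand: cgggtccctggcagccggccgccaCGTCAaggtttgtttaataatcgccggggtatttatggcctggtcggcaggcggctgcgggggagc
Spata3, chr1:86021865-86021954, plus strand: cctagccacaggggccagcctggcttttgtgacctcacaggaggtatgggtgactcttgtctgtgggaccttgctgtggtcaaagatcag
Spata32, chr11:103218423-103218512, minus strand: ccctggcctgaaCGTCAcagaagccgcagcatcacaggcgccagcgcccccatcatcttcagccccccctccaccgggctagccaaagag
Spata7, chr12:98628062-98628151, plus strand: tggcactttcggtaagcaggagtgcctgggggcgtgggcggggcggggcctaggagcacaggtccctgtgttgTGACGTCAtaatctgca
Spag6l, chr16:16829354-16829443, minus strand: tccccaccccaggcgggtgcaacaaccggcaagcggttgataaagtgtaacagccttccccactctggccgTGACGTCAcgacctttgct
Spata18 and Spata32 held the shorter TGACG on the reverse strand, 56 and 68 bases before the start, and Spata3 held none in this window. Over windows of 250 bases before to 50 after the start, read on both strands, 35 members had a promoter in the table. TGACGTCA occurred in 2 of these 35 (5.71%), against 3.42% of tested genes and 1.79% of all promoters. TGACG, which lies inside the longer word, occurred in 12 (34.3%), against 32.7% of tested genes and 20.8% of all promoters. GTTGCC, a part of the X box bound by RFX factors, occurred in 8 (22.9%), against 15.8% of tested genes and 12.5% of all promoters. The shares of all promoters count single promoters, of which a gene may have several, so they are not on the scale of the gene shares. Counted by promoter, members had 4.65%, 32.6% and 18.6% for these words in turn, and tested genes 2.91%, 28.6% and 13.6%. Of the genes with the full element, Spata7 was called lower and Spag6l was not.

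**Figure D2:**
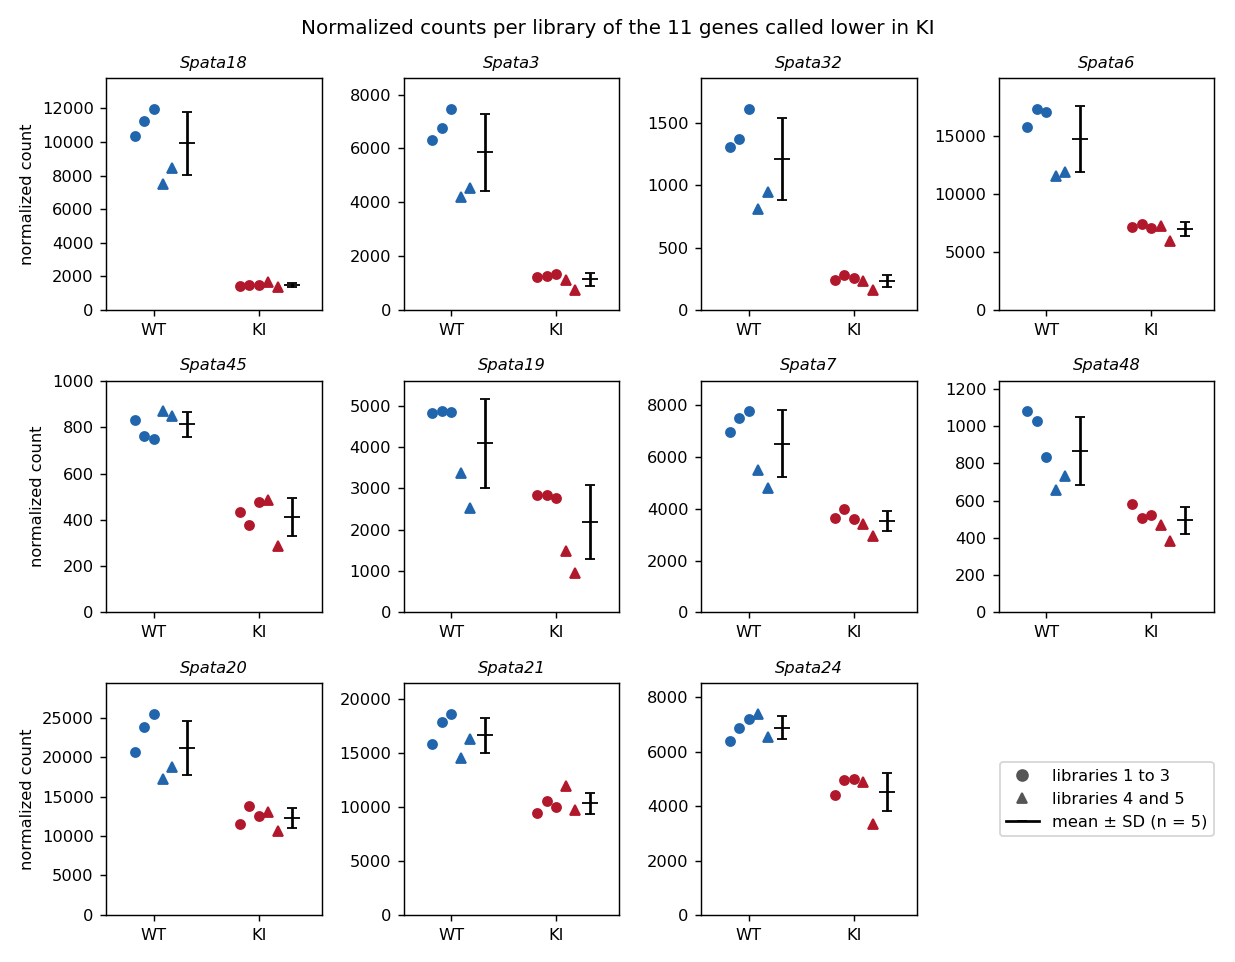
Normalised read counts (linear axes from 0) of the 11 called members in the 10 libraries, WT and KI side by side, with the mean ± SD (n = 5) of each group beside them and libraries 4 and 5 as triangles. The groups are separated in every panel except that of Spata19, where they overlap.

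The mitochondrial members all fell, by very different amounts. Beside Spata18, Spata19, a protein of the sperm mitochondria and midpiece, had 4838, 4872, 4853, 3379 and 2537 in WT libraries 1 to 5 and 2843, 2852, 2759, 1497 and 958 in KI libraries 1 to 5. KI libraries 1 to 3 lay above WT library 5, so the groups overlapped, although within libraries 1 to 3 and within libraries 4 and 5 every KI value was below every WT value (log2 fold change -0.99, SE 0.28, limma adjusted p = 0.0193). This call was lost without WT library 1 (adjusted p = 0.0532), WT library 2 (0.051) or KI library 4 (0.0523), and with the libraries scaled to their totals (0.0542), all by limma. Spata33, which brings the phosphatase calcineurin to sperm mitochondria, had 3947, 4264, 4113, 4491 and 4114 in WT libraries 1 to 5 and 2954, 2993, 3420, 3601 and 2416 in KI libraries 1 to 5. Its groups did not overlap, and it passed the adjusted p but not the fold limit (log2 fold change -0.46, SE 0.11, limma adjusted p = 0.00535). Of 12 other genes of the mitochondrial sheath and midpiece, 2 were called lower and 0 higher, with a median of -0.22. They were Smcp, a cysteine-rich protein of the mitochondrial capsule (30598 in WT and 4541 in KI on average, log2 fold change -2.74), and Gpx4, a selenoprotein peroxidase (13564 and 8851, -0.59). Smcp is also among the elongating spermatid markers above.

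Spata6, needed for the connecting piece that holds the head on the tail (chromosome 4, 111720010 to 111829142, plus strand), had 15756, 17322, 17053, 11505 and 11873 in WT libraries 1 to 5 and 7174, 7392, 7062, 7202 and 5968 in KI libraries 1 to 5. All KI libraries lay under all WT libraries, and KI library 5 was the lowest (log2 fold change -1.06, SE 0.13, limma adjusted p = 2.81e-05). Among 13 other genes of head-tail coupling and the manchette, 5 were called lower and 0 higher, with a median of -0.31. Odf1, an outer dense fibre protein, and Oaz3, a testis antizyme, fell most (-2.55 and -2.50), and both are also among the elongating spermatid markers above. Pmfbp1, a protein of the coupling apparatus, fell by 1.24 on the log2 scale, Hook1, a manchette linker, by 0.89, and Cep112, a centrosomal protein, by 0.74.

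The remaining 6 called members fell between 1.5-fold and 2-fold. Spata45 (chromosome 1, 191036822 to 191042942, plus strand) had 832, 761, 750, 870 and 848 in WT libraries 1 to 5 and 434, 379, 479, 486 and 286 in KI libraries 1 to 5, with no overlap (log2 fold change -0.998, SE 0.13, limma adjusted p = 5.99e-05). Spata7, a protein of the photoreceptor connecting cilium that is mutated in retinal disease and is found in many tissues, had 6954, 7506, 7772, 5516 and 4795 in WT libraries 1 to 5 and 3646, 3983, 3618, 3423 and 2965 in KI libraries 1 to 5. It was the only one of the 9 broadly expressed members to be called (log2 fold change -0.87, SE 0.13, limma adjusted p = 2.36e-04).

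Spata48 had 1080, 1026, 831, 658 and 731 in WT libraries 1 to 5 and 584, 507, 524, 468 and 382 in KI libraries 1 to 5 (log2 fold change -0.80, SE 0.15, limma adjusted p = 0.001). Spata20, which has a thioredoxin-like domain, had 20639, 23774, 25539, 17288 and 18768 in WT libraries 1 to 5 and 11536, 13752, 12573, 12992 and 10616 in KI libraries 1 to 5 (log2 fold change -0.78, SE 0.12, limma adjusted p = 2.90e-04). The KI libraries of both genes lay under all WT libraries.

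Spata21, an EF-hand protein, had 15863, 17861, 18668, 14509 and 16294 in WT libraries 1 to 5 and 9431, 10572, 10051, 11944 and 9719 in KI libraries 1 to 5 (log2 fold change -0.69, SE 0.10, limma adjusted p = 1.96e-04). Spata24 had 6403, 6880, 7211, 7404 and 6557 in WT libraries 1 to 5 and 4396, 4966, 5010, 4881 and 3337 in KI libraries 1 to 5, and its fall was the smallest of those called (log2 fold change -0.62, SE 0.11, limma adjusted p = 9.68e-04). Both were separated between the groups, but the fold of Spata24 was under 1.5 without KI library 5 (-0.52), with scaling by upper quartile (-0.53) or by spermatocyte markers (-0.56), and the folds of Spata48, Spata20, Spata21 and Spata24 were under it with library totals (-0.57, -0.55, -0.46 and -0.39).

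A further 8 members passed the adjusted p with a fold change under 1.5, and all 8 were lower in KI. Spata31 lay just outside the fold limit, at 3717, 4069, 3020, 2927 and 3441 in WT libraries 1 to 5 and 2626, 2241, 2302, 2063 and 2245 in KI libraries 1 to 5 (log2 fold change -0.57, SE 0.11, limma adjusted p = 0.00101). edgeR called it at -0.59, and limma called it without WT library 3, WT library 4 or KI library 1. The others were Spata33, Spata46, Spata1 (log2 fold change -0.41, limma adjusted p = 0.0136), Spata9 (-0.38, 0.0432), Spata4 (-0.37, 0.0455), Spag16 and Spata17. Spata4 had the highest level of all members per kilobase of exon, and its change, with means of 19757 ± 2534 in WT and 15350 ± 2014 in KI (SD, n = 5 each), was large in reads though small as a ratio. WT and KI libraries overlapped for Spata9 and Spata4.

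**Figure D3:**
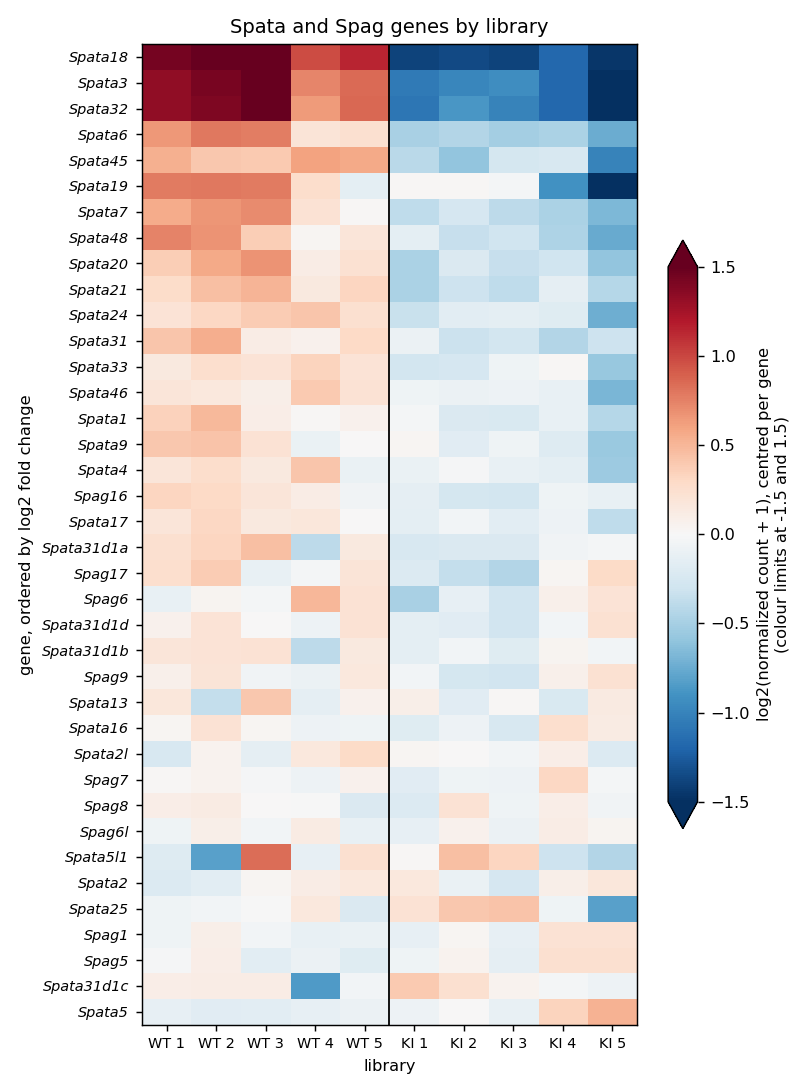
Log2 level of each of the 38 members in each of the 10 libraries centred on its mean over the 10, members ordered by fold change, colours limited at -1.5 and 1.5. The upper rows are low in all 5 KI libraries, while rows near the bottom vary among libraries of both genotypes.

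The axoneme members changed little over all 10 libraries, and none was called. The central apparatus, the pair of single microtubules with their projections at the centre of the axoneme, is represented by Spag6, Spag6l, Spag16 and Spag17. Spag6 had 2374, 2644, 2519, 3633 and 2999 in WT libraries 1 to 5 and 1832, 2353, 2115, 2711 and 2973 in KI libraries 1 to 5, and the groups overlapped (log2 fold change -0.25, SE 0.14, limma adjusted p = 0.236). Spag6l had 7572, 8463, 7701, 8631 and 7358 in WT libraries 1 to 5 and 7270, 8335, 7479, 8590 and 8182 in KI libraries 1 to 5, with overlapping groups (log2 fold change 0.00, SE 0.09, limma adjusted p = 0.98; 95% interval -0.19 to 0.20). Spag16 had 2631, 2590, 2383, 2267 and 2038 in WT libraries 1 to 5 and 1911, 1754, 1736, 2015 and 1946 in KI libraries 1 to 5.

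Spag16 alone among the 9 Spag genes passed the adjusted p, and its KI libraries lay under all WT libraries (log2 fold change -0.34, SE 0.09, limma adjusted p = 0.0134). Spag17, the largest of these scaffolds, had 7930, 8623, 6126, 6501 and 7581 in WT libraries 1 to 5 and 5770, 5207, 4913, 6793 and 8102 in KI libraries 1 to 5 (log2 fold change -0.27, SE 0.14, limma adjusted p = 0.188). In KI libraries 4 and 5 Spag17 lay within the WT range, while KI libraries 1 to 3 were below all WT libraries. In libraries 1 to 3 alone, the log2 fold changes were -0.49 for Spag16, -0.50 for Spag17 and -0.26 for Spag6. Their limma adjusted p-values there were 9.84e-05, 0.00173 and 0.0333, while Spag6l did not pass (-0.04, 0.733). In libraries 4 and 5 alone the changes of Spag16, Spag17 and Spag6 were -0.12, 0.08 and -0.22, and none passed (limma adjusted p 0.652, 0.8 and 0.394). Over all 10 libraries the 13 other central apparatus genes changed little too, with 0 called in either direction by limma and a median of -0.05. Of these, 1 was lower at the adjusted p alone and 2 at an unadjusted p under 0.05.

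Spag1, an assembly factor of the dynein arms, had 1747, 1945, 1779, 1696 and 1704 in WT libraries 1 to 5 and 1672, 1859, 1673, 2130 and 2131 in KI libraries 1 to 5 (log2 fold change 0.09, SE 0.09, limma adjusted p = 0.57). Spag8, a protein of the doublet microtubules, had 1554, 1582, 1464, 1451 and 1253 in WT libraries 1 to 5 and 1258, 1683, 1387, 1555 and 1406 in KI libraries 1 to 5 (log2 fold change -0.01, SE 0.10, limma adjusted p = 0.979). The groups overlapped for both genes, and KI libraries 4 and 5 had the highest values of Spag1.

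Spata17, with calmodulin-binding IQ motifs, had 1274, 1398, 1248, 1264 and 1127 in WT libraries 1 to 5 and 1012, 1091, 1004, 1069 and 860 in KI libraries 1 to 5, all KI libraries under all WT libraries (log2 fold change -0.33, SE 0.09, limma adjusted p = 0.0178). Of 21 genes listed for the doublet microtubules and axoneme assembly, 19 were tested by limma, and 0 were called in either direction or had an unadjusted p under 0.05. Their median was -0.01. In the fit over all 10 libraries, the 95% intervals of all 9 Spag genes lay within a 1.5-fold change in either direction, as did those of 9 of the 29 Spata genes. That of Spag17 reached -0.57, in size close to the log2 limit of 0.585. The share of all genes with such an interval was not computed.

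The acrosome and head members were Spata16 and Spata46. Spata16, a Golgi and acrosome protein whose loss gives round-headed sperm, had 5647, 6402, 5620, 5243 and 5264 in WT libraries 1 to 5 and 4852, 5221, 4658, 6593 and 6029 in KI libraries 1 to 5 (log2 fold change -0.05, SE 0.11, limma adjusted p = 0.786). KI libraries 1 to 3 were below all WT libraries and KI libraries 4 and 5 among or above them, and the 95% interval was -0.28 to 0.18. Spata46, a nuclear envelope protein that shapes the sperm head, had 2602, 2555, 2446, 3017 and 2659 in WT libraries 1 to 5 and 2200, 2157, 2183, 2118 and 1421 in KI libraries 1 to 5 (log2 fold change -0.41, SE 0.12, limma adjusted p = 0.0213). KI library 5 was far under the others, and in libraries 4 and 5 alone Spata46 passed the fold limit too (-0.71, limma adjusted p = 0.025). Of 12 other genes of acrosome biogenesis, 0 were called by limma in either direction, 3 were lower at the adjusted p alone, 6 were lower with an unadjusted p below 0.05, and the median was -0.22. Over all 5 lists of genes that work in the same structures, 7 of 69 genes tested were called lower and 0 higher, a share close to that of all genes (8.22%), 5 of them for head-tail coupling and the manchette.

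Among the broadly expressed members other than Spata7, none passed the adjusted p. Spag5 (astrin), a protein of the mitotic spindle, had 3297, 3588, 3005, 3130 and 2948 in WT libraries 1 to 5 and 3194, 3472, 3041, 3948 and 3957 in KI libraries 1 to 5 (log2 fold change 0.14, SE 0.10, limma adjusted p = 0.36). Spag9 (JIP4), a scaffold of the JNK pathway, had 2029, 2197, 1861, 1817 and 2146 in WT libraries 1 to 5 and 1872, 1603, 1580, 2026 and 2261 in KI libraries 1 to 5 (log2 fold change -0.12, SE 0.11, limma adjusted p = 0.503). Spag7, which has an R3H domain, had 589, 602, 571, 550 and 609 in WT libraries 1 to 5 and 514, 555, 550, 719 and 569 in KI libraries 1 to 5 (log2 fold change -0.02, SE 0.10, limma adjusted p = 0.935). The groups overlapped for these 3 Spag genes, and the highest value of each was in KI library 4 or 5.

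Spata2 links the deubiquitinase CYLD to the LUBAC complex, and Spata2l is its relative. Spata2 had 287, 297, 338, 356 and 369 in WT libraries 1 to 5 and 371, 308, 277, 352 and 374 in KI libraries 1 to 5 (log2 fold change 0.03, SE 0.12, limma adjusted p = 0.901). Spata2l had 267, 327, 287, 353 and 387 in WT libraries 1 to 5 and 323, 319, 308, 338 and 274 in KI libraries 1 to 5 (log2 fold change -0.04, SE 0.12, limma adjusted p = 0.833). Neither gene separated the groups.

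Spata5, an AAA ATPase of ribosome maturation, had the most positive change of all members, with 1558, 1508, 1517, 1561 and 1596 in WT libraries 1 to 5 and 1613, 1708, 1576, 2136 and 2445 in KI libraries 1 to 5. KI libraries 4 and 5 stood above all others, and the unadjusted p was under 0.05 while the adjusted p was not (log2 fold change 0.27, SE 0.12, limma adjusted p = 0.11). Its relative Spata5l1 had 22.0, 13.9, 45.9, 23.1 and 30.1 in WT libraries 1 to 5 and 25.7, 34.8, 31.9, 20.2 and 18.4 in KI libraries 1 to 5, too few reads for a narrow estimate (log2 fold change 0.02, SE 0.29, limma adjusted p = 0.971; 95% interval -0.61 to 0.65). Spata13 had 112, 77.5, 132, 90.3 and 104 in WT libraries 1 to 5 and 106, 88.6, 101, 84.6 and 109 in KI libraries 1 to 5 (log2 fold change -0.06, SE 0.16, limma adjusted p = 0.836). The groups overlapped for both.

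The Spata31 group and 3 pairs of related names allowed members to be set against each other within a library. For each of 7 pairs the log2 ratio of the genes was compared between genotypes by exact permutation (two-sided, 252 arrangements, smallest possible p 0.00794), with Benjamini-Hochberg adjustment over the 7 pairs. Spata31 fell relative to Spata31d1c by 0.80 on the log2 scale and to Spata31d1d by 0.41, each with p = 0.00794 (exact; adjusted 0.0278). Permuting only within the same-numbered pairs of libraries, 5 of 5 pairs were negative for both, but the exact p cannot go below 0.0625 there and neither passed (adjusted 0.146). The call was also lost for each ratio in 9 of 10 runs that left out 1 library (adjusted exact p 0.037 to 0.0556 for d1c and 0.0417 to 0.0926 for d1d), with ratios of -0.90 to -0.68 and -0.48 to -0.33. Against Spata31d1b the difference was -0.43 (exact p = 0.0238, adjusted 0.0556) and against Spata31d1a -0.27 (exact p = 0.127, adjusted 0.189). None of the 4 d1 genes passed the limma test by itself (-0.31, -0.15, 0.23 and -0.16 for d1a, d1b, d1c and d1d). Spata31d1a and Spata31d1b shared 787 words of 100 bases, 15.1% and 18.8% of their transcripts, so reads could be divided between them, while no other pair among the members examined shared such a word. Spata5l1 was not examined for this.

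The pairs outside the Spata31 group did not pass. The ratio of Spag6 to Spag6l, central apparatus genes with no shared word of 100 bases, differed by -0.25 (exact p = 0.135, adjusted 0.189). That of Spata2 to Spata2l differed by 0.07 (exact p = 0.587) and that of Spata5 to Spata5l1 by 0.25 (exact p = 0.563), both with an adjusted p of 0.587. These misses do not show that the related genes changed alike.

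Libraries 1 to 3 and libraries 4 and 5 were also compared separately, because of their distance on the second principal component. All 11 called members were lower in KI in both sets, although Spata24 missed the fold limit in libraries 1 to 3 (-0.51) and Spata21 the test in libraries 4 and 5 (-0.51, limma adjusted p = 0.0617). The 11 were called on these same libraries. For all but Spata19 every KI library lay below every WT library, so the shared direction followed from the call and is no separate support. For Spata18 the log2 fold changes of the earlier- and later-numbered set were -2.92 and -2.38, and for Spata19 they were -0.78 and -1.29. Over all members, 24 of 38 kept their sign, 21 negative and 3 positive, 11 were negative in libraries 1 to 3 and positive in 4 and 5, and 3 the opposite. The share of all genes that kept their sign was not computed. Across the 38 members Pearson's r between the sets was 0.871, and 0.616 over 35 without Spata18, Spata3 and Spata32, as a description only, since the members share libraries. WT libraries 4 and 5 were both below WT libraries 1 to 3 for 8 of the 11 called members and for 17 of all 38, and above for 6, against 20.9% and 17.1% of all genes. The elongating spermatid sum was likewise 360532 to 431674 in WT libraries 1 to 3 and 241203 to 253390 in WT libraries 4 and 5, and its part in these member values was not tested.

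**Figure D4:**
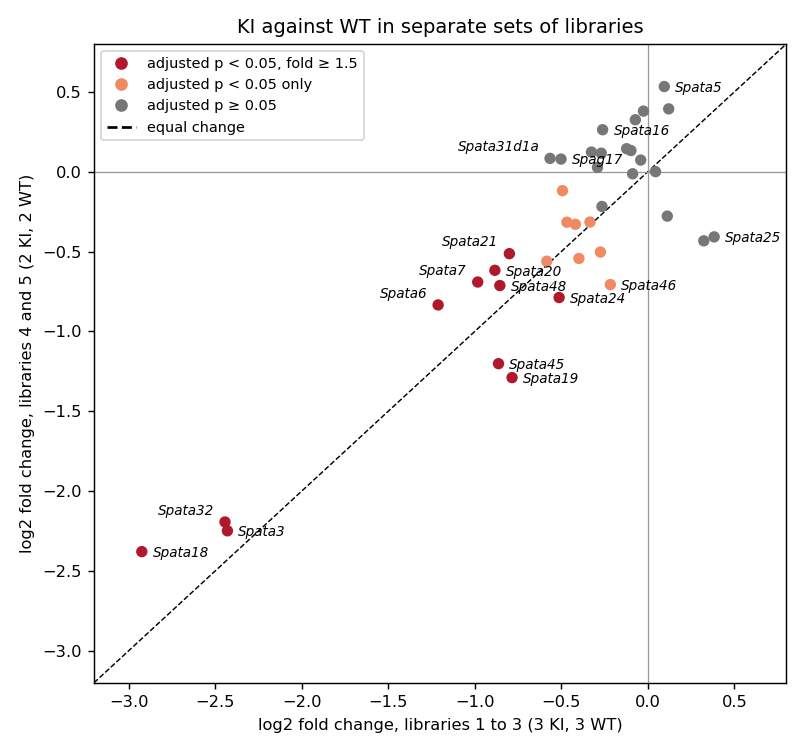
Log2 fold change (KI against WT) of each member in libraries 1 to 3 (horizontal axis) against that in libraries 4 and 5 (vertical axis), coloured by the test over all 10 libraries; the dashed line marks equal change. The 11 called members lie in the lower left, and the members with small changes scatter around 0, several on opposite sides.

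Levels were compared between members per kilobase of merged exons. In WT, Spata4 was highest at 18690 ± 2397 normalised counts per kilobase (SD, n = 5), followed by Spata20 at 7377 ± 1193, Spata24 at 6870 ± 422, Spata21 at 6329 ± 627 and Spata18 at 4705 ± 890. The step from Spata20 to Spata24 was smaller than the SD of Spata20, and that from Spata24 to Spata21 smaller than the SD of Spata21. Of these 5, all but Spata4 were called lower in KI. The lowest were Spata13 at 11.3 ± 2.28 and Spata5l1 at 17.4 ± 7.78 per kilobase, both broadly expressed genes. Spata25, the member not yet named, had a log2 fold change of 0.07 (limma adjusted p = 0.844).

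**Figure D5:**
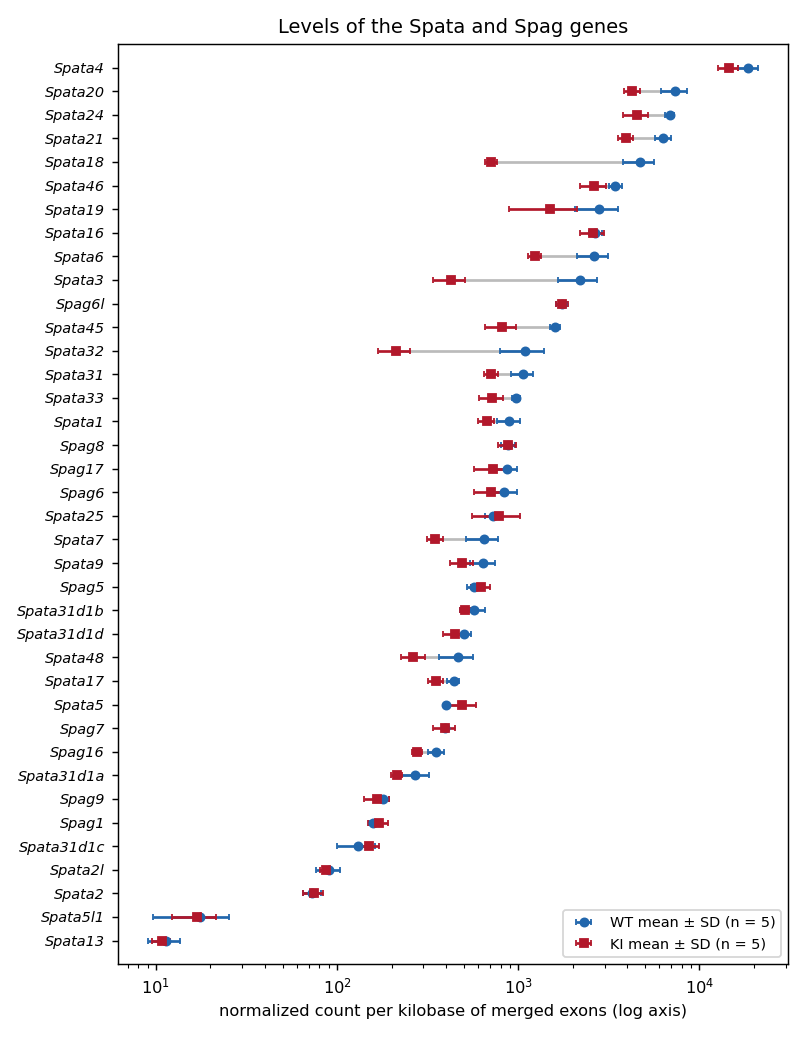
Mean ± SD (n = 5) of normalised counts per kilobase of merged exons (log axis) of the 38 members in WT (circles) and KI (squares), ordered by WT level. The widest gaps are those of Spata18, Spata3 and Spata32, and WT and KI nearly coincide for the members at the bottom.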

How the data were processed

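Total RNA of dispersed testicular germ cells was extracted, and mRNA was selected and sequenced in paired reads. Per the labels and the methods, the reads were mapped to mm10 by STAR and assigned to RefSeq genes in Partek. The authors then divided each gene's count by the DESeq2 size factor of the library, so the deposited values are a signal scaled for depth. Whole reads could be recovered within 0.1 of a read for all values below 5000 reads. In all, 0 columns of sample values were left unassigned.

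limma 3.58.1 in R 4.3.3 was fitted with a variance trend to log2(value + 1) over 15389 genes that passed edgeR's expression filter on recovered reads (edgeR 4.0.16), with genotype as the only term. All 38 members passed the filter. Adjusted p-values are Benjamini-Hochberg over all genes tested. Fold changes are on the log2(value + 1) scale, which understates the change of low genes. A call needed an adjusted p under 0.05 and a fold change of at least 1.5. Members, role groups and lists were chosen with earlier results of these data known. Values in every library are given for all called members and for every member with an assigned role; the other members are given by their fold changes, and the values of Spata31 and Spata4 were added after they were seen. Exon lengths and transcripts came from GENCODE (mm10). Alternatives were other pseudocounts, filters and scalings, edgeR on the recovered reads (1293 genes lower and 950 higher), DESeq2 1.42.0, single libraries left out and sets of libraries.

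A count of 0 allows up to 3 reads, 2.61 to 3.62 normalised counts, for counting error only. Libraries of a genotype differed beyond sampling noise (chi-square per degree of freedom 2.68 to 46.7), so each was counted as 1 sample. The same replicate numbers occur in both genotypes, and deviations from the group means of same-numbered libraries correlated at 0.306, 0.105, 0.28, 0.216 and 0.462 across genes, so a fit with the number as a block was run too. The pairing comes from these values, not from the labels.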

Additional observations from a re-analysis of the deposited data

Results flagged for a closer look

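Dixon's test was applied to the 5 libraries of each genotype for the members and Ddx25, 78 groups in all, of which chance alone would flag about 1 in 20. It marked 6. KI library 5 was the lowest KI library for 3 members: Spata6 at 5968, with the nearest library at 7062, Spata46 at 1421 (nearest 2118) and Spata4 at 11874 (nearest 15635). In the same library the summed round and elongating spermatid markers were also the lowest of the 10, at 11705 and 34858. WT library 4 was the lowest WT library for Spata31d1b at 1743 (nearest 2533) and for Spata31d1c at 259 (nearest 454). KI library 4 was the highest KI library for Spag7 at 719 (nearest 569). Any part of library quality or cell makeup in these values was not tested.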

How the results depend on the processing

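With the replicate number as a block, 11 members were called lower, as without it, and 2410 genes were called over the whole table. By adjusted p alone 20 members were lower and 1 was higher. The block changed no call of a member. The count of members called lower was 6 with library totals, 19 by adjusted p alone and 4 at a fold of at least 2; that of members called higher was 0 under every alternative run. The genes called over the whole table were 3529 by adjusted p alone and 969 at a fold of at least 2, and the structure lists 14 and 4. Leaving out 1 library at a time gave 10 to 12 members lower, 0 higher, 1971 to 2303 genes in all and 6 to 9 structure genes. Scaling moved the split of calls: 789 lower and 2145 higher with library totals and 1025 and 1296 by upper quartile, against 1265 and 944. All 19 members with an adjusted p under 0.05 stayed negative with library totals, and 32 of 38 members lay below the median of all genes there. This scaling moved every member by nearly the same amount on the log2 scale, so these counts restate the main fit and are no separate support. By adjusted p alone, library totals gave 11 members lower and 5 higher. The 5 were Spata5 (0.50), Spata31d1c (0.46), Spag5 (0.37), Spag1 (0.32) and Spag6l (0.23), where the median of all genes was 0.25. So the small changes of these Spag genes depend on the scaling.

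Changes of sign occurred among members that were not called. With library totals these were Spata31d1d 0.066, Spata31d1b 0.083, Spag9 0.11, Spata13 0.17, Spata16 0.18, Spata2l 0.19, Spag7 0.21 and Spag8 0.22. By upper quartile they were Spata13 0.035, Spata16 0.042, Spata2l 0.050, Spag7 0.078 and Spag8 0.088, and by spermatocyte markers Spata13 0.0059, Spata16 0.013, Spata2l 0.020, Spag7 0.048 and Spag8 0.059. In libraries 4 and 5 they were Spata31d1a 0.084, Spag17 0.080, Spata31d1d 0.027, Spata31d1b 0.12, Spag9 0.12, Spata16 0.26, Spag7 0.14, Spag8 0.13, Spata5l1 -0.43 and Spata25 -0.41. In libraries 1 to 3 they were Spata2l 0.11, Spag6l -0.041, Spag1 -0.072, Spag5 -0.025, the ratio of Spata2 to Spata2l -0.068 and of Spata5 to Spata5l1 -0.23. edgeR and DESeq2 gave Spata5l1 -0.042 and -0.038. Without single libraries the ranges crossing 0 were Spag6l -0.023 to 0.037, Spag7 -0.095 to 0.026, Spag8 -0.060 to 0.046, Spata13 -0.15 to 0.035, Spata16 -0.12 to 0.0033, Spata2 -0.021 to 0.094, Spata25 -0.031 to 0.28, Spata2l -0.11 to 0.023, Spata5l1 -0.18 to 0.23 and the ratio of Spata2 to Spata2l -0.016 to 0.13. The cause was not tested. The ratios of Spata31 to Spata31d1c and Spata31d1d stayed negative under every alternative run. Both missed the test in 9 of 10 runs without a library. Permuting within same-numbered pairs, among libraries 1 to 3 (adjusted exact p 0.233) or among libraries 4 and 5 (0.333) could not test these ratios. Too few arrangements exist there for any ratio to pass, so those misses say nothing for or against the calls. The alternatives for the structure lists and the ratios were chosen after seeing the data. Low reads limit Spata5l1 and Spata13.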
